A study of Mus musculus with 9 samples.

Results

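WNT ligands, their receptors and antagonists, and the TCF/LEF factors at the end of the pathway were followed across 3 mouse pluripotent cell lines. The members were chosen by symbol: every WNT ligand, Frizzled receptor, secreted Frizzled-related protein (SFRP), Dickkopf (DKK) and R-spondin that the array annotation names, and 18 further genes of the pathway (Frzb, Wif1, Lrp5, Lrp6, Axin1, Axin2, Tcf7, Tcf7l1, Tcf7l2, Lef1, Lgr4, Lgr5, Ctnnb1, Apc, Nkd1, Nkd2, Sp5 and Porcn). This gave 58 of the 19938 genes with a single symbol. Of the 18 further genes, 17 had a probe set, and Tcf7 was not analysed here. Only Wnt4 had more than 1 probe set, and the brighter one was used for it.

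The lines were P19 NTES7, P19 and R1, with 3 arrays each of total RNA from untreated cells. P19 NTES7 is a single line of pluripotent stem cells, grown from a blastocyst that was cloned with nuclei of P19. P19 itself is an embryonal carcinoma (EC) line, and R1 is a line of embryonic stem (ES) cells. All 3 lines were fed the same serum medium with leukemia inhibitory factor. Per the methods, P19 NTES7 and the other stem cells grew on fibroblast feeders treated with mitomycin C, and the ES cells were collected free of feeders. The labels give the derived line as stem cells from P19, and it was taken here to be P19 NTES7. They call the arrays biological replicates, but separate cultures are not described, so p-values here speak only to the spread of these arrays, which may be technical.

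WNT ligands are secreted proteins that bind a Frizzled receptor together with the co-receptor LRP5 or LRP6. This frees beta-catenin from a complex of AXIN and APC that otherwise marks it for destruction, and beta-catenin then joins the TCF/LEF factors on target genes. In mouse ES cells, beta-catenin relieves the repression that TCF7L1 exerts on pluripotency genes, and other ligands such as WNT5A also act without beta-catenin. SFRP proteins, FRZB and WIF1 bind ligands outside the cell, DKK1 blocks the LRP co-receptors, and R-spondins keep receptors on the surface through LGR4 and LGR5.

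Each value is a normalized intensity on the linear scale, and its number is not comparable between probe sets of different genes. Sums over marker genes weigh the brightest probe sets most and are compared only between arrays. A gene was called different between 2 lines where the Benjamini-Hochberg adjusted p of limma was under 0.01 and the fold was over 2. The median intensity of the 9 arrays lay between 16.5 and 17.5, and a gene whose mean in a line was below the mean of that line's array medians is called dim there. This label describes signal and does not rank RNA amounts between genes. Folds of dim genes are open to compression, since background adds to both levels. Over all probe sets, arrays of a line correlated at 0.989 or more, and arrays of different lines at 0.978 or less. Bulk RNA does not tell fewer cells of a type from less RNA per cell.

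Markers of pluripotent cells were measured on all arrays. Of 10 such genes, only Fut4 was dim, in each of the 3 lines. Their summed intensity ran from 5009 to 5669 in P19 NTES7, from 5883 to 6214 in P19 and from 7179 to 7320 in R1. Against P19, P19 NTES7 had higher calls for 2 and a lower call for 1, and against R1 lower calls for 3. P19 had lower calls for 3 against R1. These were 30% in each comparison, against 2.91%, 4.52% and 7.40% of all probe sets in this order. In the same order the lowest log2 differences were -2.71, -3.02 and -3.90. Markers of fibroblasts, the feeder cell type, moved between the lines. The summed intensity of 19 such markers was 1159 to 1433 in P19 NTES7, 359 to 396 in P19 and 1659 to 1973 in R1, and 12 of the 19 were dim in P19, 2 in P19 NTES7 (Fap and Lum) and 1 in R1 (Fap). P19 NTES7 had higher calls for 12 of the 19 against P19 and lower calls for 3 against R1, and P19 had lower calls for 15 against R1. R1 array 3 had the highest sum. The part of these cells in the WNT results was not tested.

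Most ligands and antagonists were dim, while most Frizzled receptors, the LRP co-receptors and the TCF/LEF factors were not. Of the 58 genes, 22 lay above the array median in all 3 lines, 27 were dim in all 3, and 9 crossed it (Wnt3, Wnt5a, Wnt8a, Fzd8, Fzd9, Rspo3, Dkk3, Sfrp4 and Axin2). Above it stood 4 of 19 ligands in P19 NTES7, 3 in P19 and 5 in R1, against 8 of 10 Frizzled receptors in each line. Ctnnb1, Lgr4 and Fzd7 may serve as examples of bright members. Ctnnb1, the gene of beta-catenin, averaged 489 ± 23.0 in P19 NTES7, 630 ± 47.3 in P19 and 535 ± 67.2 in R1 (SD, n = 3 arrays each). Lgr4 averaged 446 ± 47.2, 531 ± 21.6 and 448 ± 6.61 in P19 NTES7, P19 and R1, and Fzd7 249 ± 39.1, 190 ± 4.22 and 217 ± 28.4 in the same lines. None of these 3 genes was called in any comparison.

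**Figure D1:**
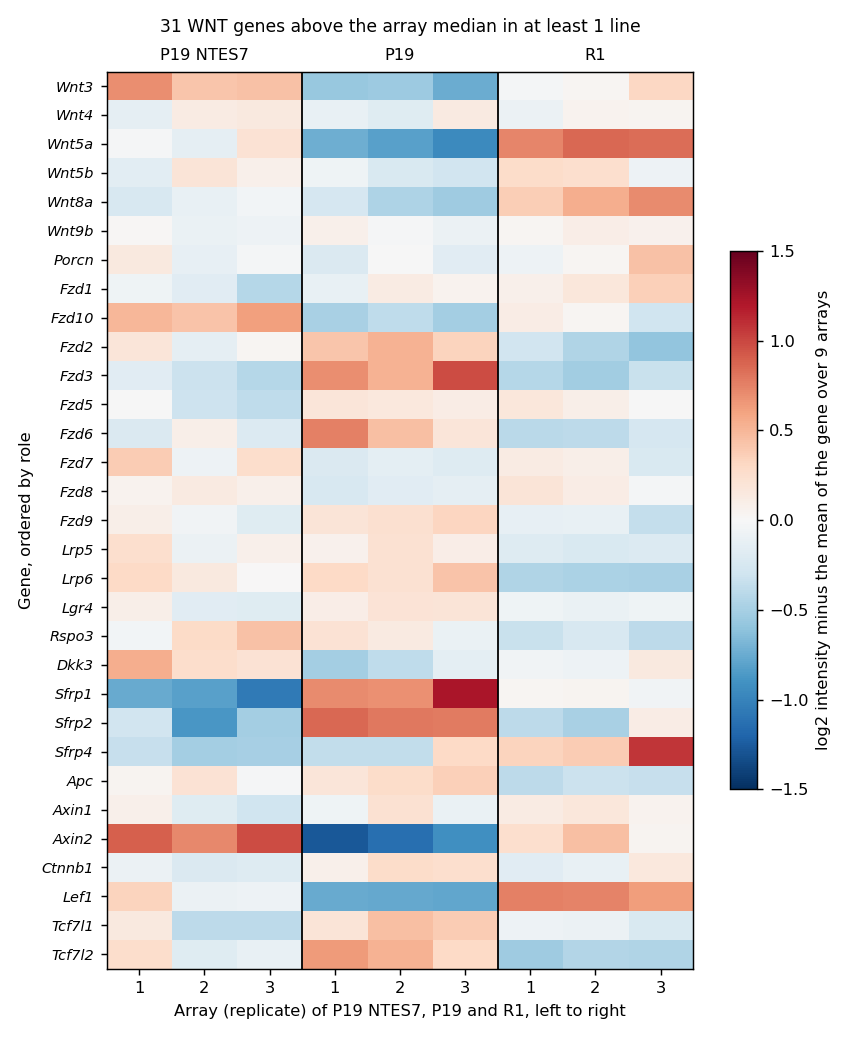
Colour gives the log2 intensity of each array minus the mean of that gene over the 9 arrays, for the 31 WNT genes above the array median in at least 1 line. Columns are the arrays of P19 NTES7, P19 and R1. Axin2 and Lef1 are blue on all 3 P19 arrays, while Sfrp1, Sfrp2 and Fzd3 are red there.

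P19 NTES7 against P19 gave calls for 5 of the 58 genes, or 8.62%, against 2.91% of all 28853 probe sets (839). Axin2 and Wnt3 were higher in P19 NTES7, and Sfrp1, Sfrp2 and Fzd3 were lower, against a background of 1.55% higher and 1.36% lower calls. The 2 higher calls ran the way of the fibroblast markers and the 3 lower calls ran against it. The means of Axin2 and Wnt3 were highest in P19 NTES7, and the fibroblast sum was highest in R1. The part of feeder cells in these calls was not tested. The median log2 difference of the 58 genes was 0.046, against 0.032 for all probe sets, and the median of its size was 0.26 against 0.15. Among genes above the median brightness of the array, 4 of 27 were called (14.8%), against 5.21% of all probe sets of that brightness. A further 8 genes had an adjusted p under 0.01 in limma and a fold of 2 or less, so that 22.4% of the 58 genes passed the limit on p, against 11.3% of all probe sets.

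Between P19 NTES7 and R1, only Sfrp4 was called, lower in P19 NTES7, which is 1.72% of the 58 genes against 4.52% of all probe sets (1.99% higher and 2.53% lower). Among the 27 brighter genes this was 3.70%, against 7.96% of probe sets of that brightness. The median log2 difference was -0.002 for the 58 genes and 0.006 for all probe sets, and the median of its size was 0.20 and 0.17. Another 14 genes passed the limma limit on p but not the limit on fold, and 25.9% of the 58 genes passed the limit on p, against 17.1% of all probe sets.

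Between P19 and R1, 5 of the 58 genes were called (8.62%), against 7.40% of all probe sets, a share close to that background. Fzd3 and Sfrp2 were higher in P19, and Axin2, Lef1 and Wnt5a were lower, while 3.70% of all probe sets were called in each direction. The 3 lower calls ran the way of the fibroblast markers and the 2 higher calls ran against it. Of the 27 brighter genes 4 were called (14.8%), against 12.8% of probe sets of that brightness. The median log2 difference was -0.057 for the 58 genes and -0.031 for all probe sets, and 13 more genes passed the limit on p alone. The limit on p was passed by 31.0% of the 58 genes, against 23.0% of all probe sets. The 3 comparisons share arrays, so their calls are not independent. Over all of them 8 genes were called, 16 passed the limit on p but never that on fold, and 34 passed neither. With 16 added to each intensity before log2, the calls of Axin2, Sfrp1 and Sfrp2 in P19 NTES7 against P19 and of Lef1 in P19 against R1 remained, and no other call did.

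**Figure D2:**
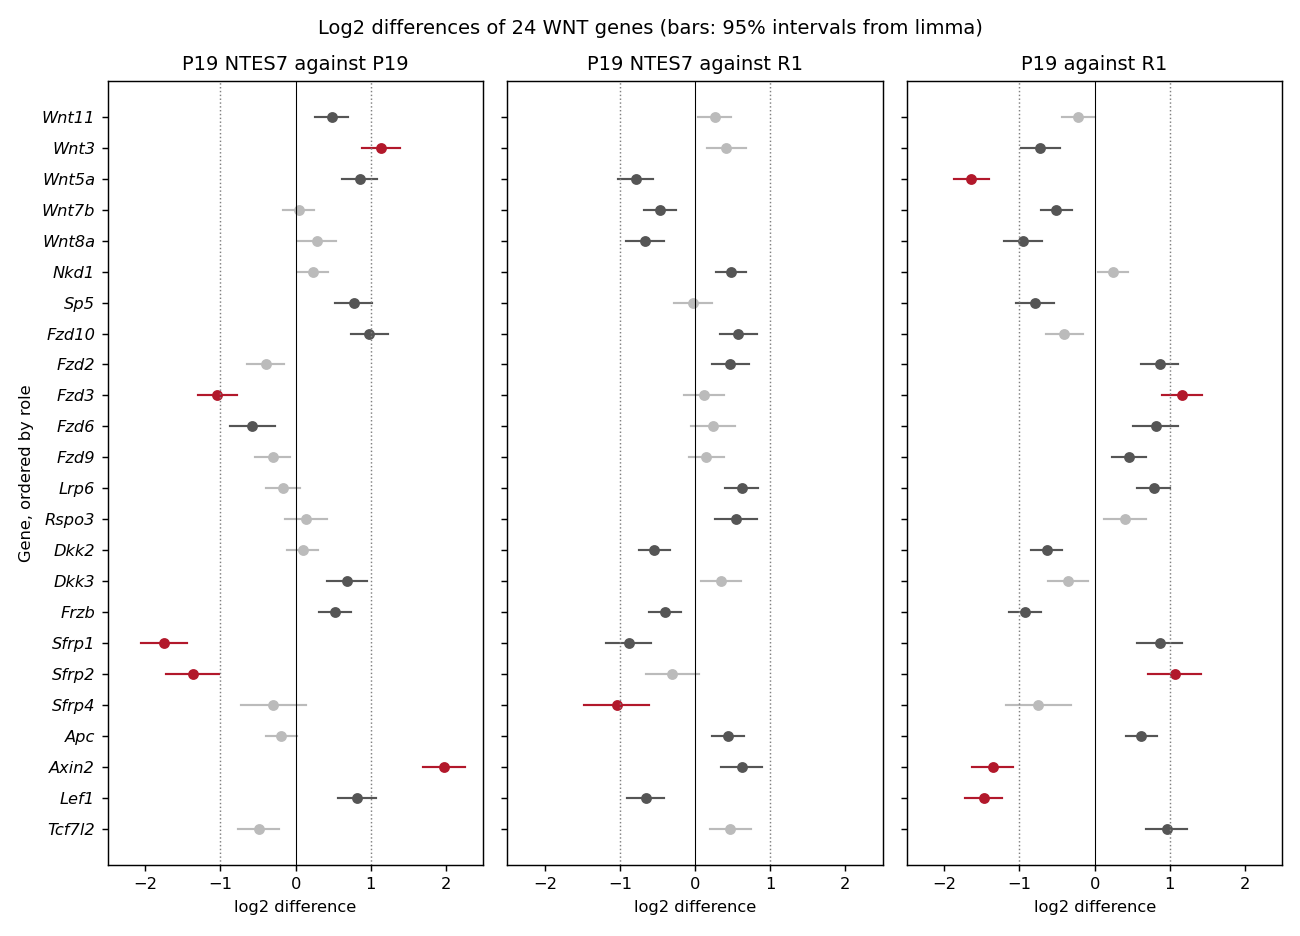
Points are log2 differences between lines for the 24 WNT genes with a limma adjusted p under 0.01 in at least 1 comparison, and bars are 95% intervals. Red marks genes called in that comparison, dark grey an adjusted p under 0.01 with a fold of 2 or less, and light grey neither, and the dotted lines mark a 2-fold difference. In the middle panel, P19 NTES7 against R1, only Sfrp4 is red.

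Among the ligands, Wnt3 and Wnt5a differed between lines. Wnt3, a ligand of the beta-catenin branch that the mouse embryo needs to form a primitive streak, gave intensities of 22.6, 18.6 and 18.998 on the P19 NTES7 arrays, 9.4, 9.6 and 8.3 on the P19 arrays and 13.6, 14.2 and 17.3 on the R1 arrays. All 3 P19 arrays were below every other array, and the lines did not overlap. Wnt3 was 2.20 times higher in P19 NTES7 than in P19 (log2 difference 1.14 ± 0.12 SE, limma adjusted p = 1.56e-05). It was dim in P19 and in R1. In P19 NTES7 against R1 the log2 difference was 0.42 (adjusted p = 0.0186 in limma), and in P19 against R1 it was -0.72 (adjusted p = 0.000306), which is under the limit on fold.

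Wnt5a, best known for signalling without beta-catenin in cell movement, was lower in P19 than in R1. Its intensity was 15.2, 14.1 and 17.9 in P19 NTES7, 9.3, 8.8 and 8.0 in P19, and 25.7, 28.0 and 27.5 in R1. The P19 NTES7 arrays lay between those of P19 and R1 with no overlap, and the gene was dim in P19 NTES7 and in P19. The level in P19 was 3.12 times lower than in R1 (log2 difference -1.64 ± 0.11 SE, adjusted p = 6.61e-08 in limma). P19 NTES7 differed from P19 by 0.85 and from R1 by -0.79 on the log2 scale, with limma adjusted p = 9.22e-05 and 0.000104, both under the limit on fold. Wnt5a moved in the direction of the fibroblast markers, which were also lowest in P19.

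The remaining 17 ligands were not called in any comparison. Wnt8a, another ligand of the beta-catenin branch, averaged 11.5 ± 0.80 in P19 NTES7, 9.42 ± 0.99 in P19 and 18.3 ± 2.16 in R1 (SD, n = 3 arrays each), with log2 differences of -0.67 in P19 NTES7 against R1 and -0.96 in P19 against R1 (limma adjusted p = 0.000677 and 2.06e-05). Wnt7b had log2 differences of -0.47 and -0.51 in the same comparisons, and Wnt11 0.48 in P19 NTES7 against P19, all with a limma adjusted p under 0.01. Both were dim in every line. Wnt4, Wnt5b and Wnt9b lay above the array median in P19 NTES7, and none of their adjusted p was under 0.01. Porcn, whose product attaches the lipid that ligands need for secretion, averaged 54.3 ± 5.40 in P19 NTES7, 49.6 ± 3.78 in P19 and 60.1 ± 11.7 in R1 and was not called.

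**Figure D3:**
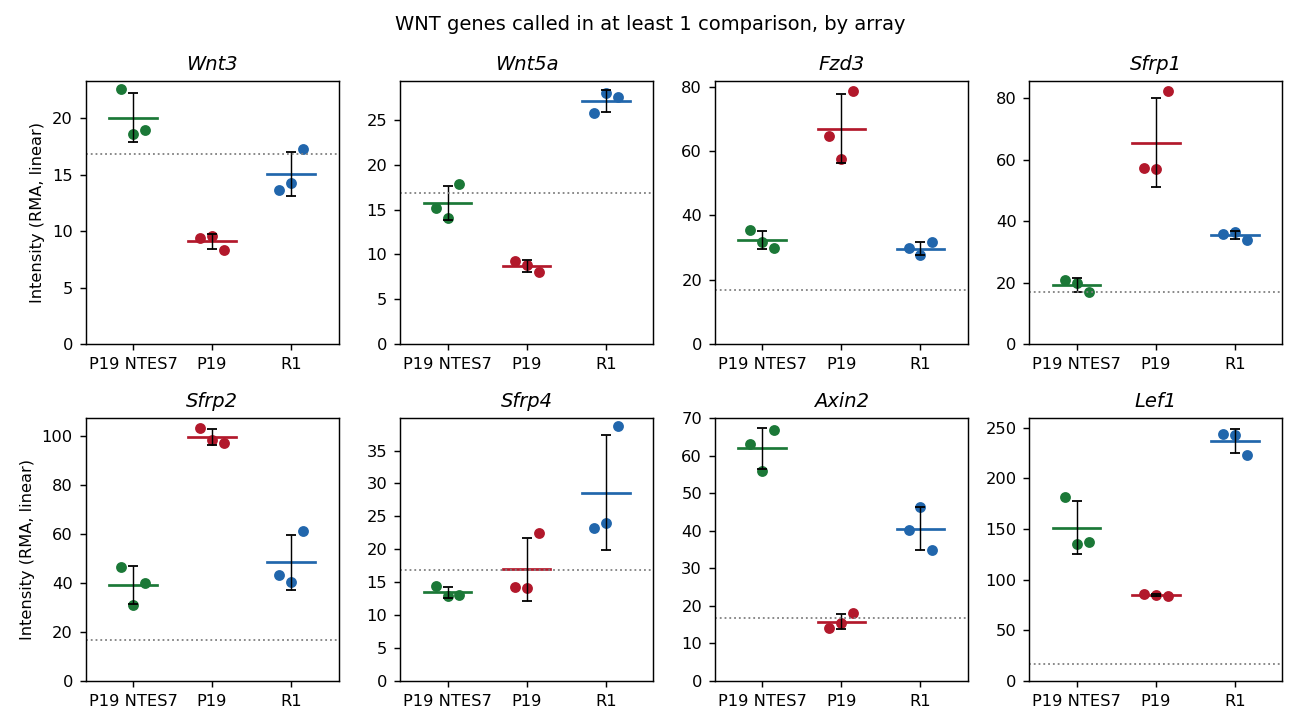
Each panel shows the intensity on the linear RMA scale of 1 of the 8 WNT genes called in at least 1 comparison. Points are arrays, lines are means, bars are SDs over 3 arrays, and the dotted line is the mean of the array medians. Axin2, Wnt3, Wnt5a and Lef1 are lowest in P19, and Fzd3, Sfrp1 and Sfrp2 are highest there.

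Of the receptors, only Fzd3, a Frizzled with known roles in axon growth and planar polarity, passed both limits. Its intensity was 35.4, 31.8 and 29.8 in P19 NTES7, 64.7, 57.5 and 78.6 in P19, and 29.8, 27.7 and 31.6 in R1. All 3 P19 arrays were above all others, while the P19 NTES7 and R1 arrays overlapped. Fzd3 was 2.06 times lower in P19 NTES7 than in P19 (log2 difference -1.04 ± 0.12 SE, limma adjusted p = 4.49e-05) and 2.24 times higher in P19 than in R1 (1.16 ± 0.12 SE, adjusted p = 5.60e-06). Between P19 NTES7 and R1 the log2 difference was 0.12, with a 95% interval of -0.14 to 0.39. The fold in P19 NTES7 against P19 was close to its limit. Without P19 NTES7 array 3 the log2 difference was -0.98, and without P19 array 3 it was -0.92, which ended the call in both cases.

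The other 9 Frizzled genes went uncalled. Fzd10 stood just under the fold limit in P19 NTES7 against P19, and it was called without P19 NTES7 array 2 or without P19 array 2. It averaged 43.3 ± 2.81 in P19 NTES7, 21.95 ± 1.07 in P19 and 29.3 ± 4.12 in R1 (SD, n = 3 arrays each). Its log2 differences were 0.98 in P19 NTES7 against P19 and 0.57 in P19 NTES7 against R1 (limma adjusted p = 4.12e-05 and 0.002). Fzd2 and Fzd6 had higher means in P19 than in R1, by 0.87 and 0.81 on the log2 scale (adjusted p = 4.17e-05 and 0.000402 in limma), and Fzd9 by 0.46, none past the limit on fold. Fzd6 also differed by -0.58 in P19 NTES7 against P19. In P19 against R1 all 4 Frizzled genes with a limma adjusted p under 0.01 (Fzd2, Fzd3, Fzd6 and Fzd9) had the higher mean in P19. Among all probe sets under this limit, 3711 were higher in P19 and 2912 were lower, so the background leaned the same way.

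The co-receptor Lrp6 averaged 204 ± 21.5 in P19 NTES7, 229 ± 15.97 in P19 and 133 ± 1.73 in R1 (SD, n = 3 arrays each). The P19 NTES7 and P19 arrays overlapped, and all R1 arrays were below them. The log2 difference was 0.62 ± 0.10 SE in P19 NTES7 against R1 and 0.79 ± 0.10 SE in P19 against R1 (limma adjusted p = 0.00047 and 3.96e-05), under the limit on fold in both. Between P19 NTES7 and P19 it was -0.17, with a 95% interval of -0.39 to 0.05. Lrp5 had log2 differences of 0.29 in P19 NTES7 against R1 and 0.34 in P19 against R1 (adjusted p = 0.0563 and 0.0229 in limma). Of the R-spondins and their receptors Lgr4 and Lgr5, only Rspo3 had an adjusted p under 0.01, with a log2 difference of 0.55 in P19 NTES7 against R1. Rspo1, Rspo2, Rspo4 and Lgr5 were dim in all 3 lines.

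Of the 10 secreted antagonists, 2 were called in P19 NTES7 against P19, 1 in P19 NTES7 against R1 and 1 in P19 against R1 (20%, 10% and 10%, against 2.91%, 4.52% and 7.40% of all probe sets). Sfrp1, which binds ligands through a Frizzled-like domain, gave 20.9, 19.96 and 16.8 in P19 NTES7, 57.3, 56.8 and 82.2 in P19, and 35.9, 36.3 and 33.9 in R1. The lines did not overlap, with P19 NTES7 lowest and P19 highest. Sfrp1 was 3.37 times lower in P19 NTES7 than in P19 (log2 difference -1.75 ± 0.14 SE, limma adjusted p = 1.50e-06). It differed by -0.89 in P19 NTES7 against R1 and by 0.87 in P19 against R1 (adjusted p = 0.000328 and 0.000273 in limma), both under the limit on fold. P19 NTES7 thus did not lie between P19 and R1 for this gene.

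Sfrp2, a close relative of Sfrp1, gave 46.4, 31.0 and 39.9 in P19 NTES7, 103, 98.6 and 97.1 in P19, and 43.2, 40.5 and 61.3 in R1. The P19 arrays were the highest, and the P19 NTES7 and R1 arrays overlapped. The level in P19 NTES7 was 2.58 times lower than in P19 (log2 difference -1.37 ± 0.16 SE, limma adjusted p = 5.05e-05), and that in P19 was 2.09 times higher than in R1 (1.07 ± 0.16 SE, adjusted p = 0.000168). Between P19 NTES7 and R1 the log2 difference was -0.30, with a 95% interval of -0.65 to 0.05. The call between P19 and R1 was lost without R1 array 1, where the log2 difference was 0.998, and without R1 array 2, where it was 0.95.

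Sfrp4 was the only WNT gene called between P19 NTES7 and R1. Its intensity was 14.5, 12.9 and 13.0 in P19 NTES7, 14.2, 14.2 and 22.5 in P19, and 23.2, 23.9 and 38.7 in R1. R1 array 3 was far above the other R1 arrays, and all R1 arrays were above the P19 NTES7 arrays, where the gene was dim. The level in P19 NTES7 was 2.06 times lower than in R1 (log2 difference -1.05 ± 0.20 SE, limma adjusted p = 0.00153), and in P19 against R1 the log2 difference was -0.75 (adjusted p = 0.0109). Without R1 array 3 the log2 difference between P19 NTES7 and R1 was -0.81 and the gene was not called. The same array had the highest Sfrp2 of R1 and the highest fibroblast sum, at 1973. The other SFRP genes, Sfrp1 and Sfrp5, were lowest of R1 on that array, at 33.9 and 8.56. The part of feeder cells in the Sfrp4 call was not tested.

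Sfrp5, Wif1, Dkk1 and Dkk4 were dim in every line, and of the antagonists only these had no adjusted p under 0.01. Frzb, also called SFRP3, averaged 10.1 ± 0.36 in P19 NTES7, 7.00 ± 0.35 in P19 and 13.3 ± 1.26 in R1, dim throughout. Its log2 differences were 0.52 in P19 NTES7 against P19 and -0.92 in P19 against R1 (limma adjusted p = 0.00206 and 6.99e-06). Dkk3, a Dickkopf with little known action on LRP co-receptors, differed by 0.69 in P19 NTES7 against P19 (adjusted p = 0.00138 in limma). Dkk2 differed by -0.54 in P19 NTES7 against R1 and by -0.64 in P19 against R1. None of these 3 genes passed the limit on fold.

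Inside the cell, Axin2 had the greatest log2 difference of the 58 genes. AXIN2 is part of the complex that destroys beta-catenin, and its gene is a widely used target of beta-catenin and TCF, so it acts as feedback. Its intensity was 63.2, 56.1 and 66.8 in P19 NTES7, 14.1, 15.5 and 17.99 in P19, and 40.3, 46.4 and 35.0 in R1. The lines did not overlap, P19 NTES7 was highest, and in P19 the gene was dim. Axin2 was higher in P19 NTES7 by 3.93 times against P19 (log2 difference 1.97 ± 0.13 SE, limma adjusted p = 1.87e-07) and 2.56 times lower in P19 than in R1 (-1.36 ± 0.13 SE, adjusted p = 1.98e-06). The log2 difference between P19 NTES7 and R1 was 0.62 (adjusted p = 0.00258 in limma), under the limit on fold.

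The other genes of that complex were not called. Apc averaged 251 ± 21.2 in P19 NTES7, 286 ± 17.4 in P19 and 185 ± 4.55 in R1 (SD, n = 3 arrays each), with log2 differences of 0.43 in P19 NTES7 against R1 and 0.62 in P19 against R1 (limma adjusted p = 0.00443 and 0.000201). For Axin1, the log2 difference in P19 NTES7 against P19 was -0.16, with a 95% interval of -0.41 to 0.10, while the same difference of Axin2 was 1.97. Ctnnb1 differed by -0.36 between P19 NTES7 and P19 (adjusted p = 0.0325 in limma).

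Lef1 was the only TCF/LEF factor called. LEF1 carries beta-catenin to target genes, and Lef1 is itself a known target of the pathway. Its intensity was 181, 136 and 137 in P19 NTES7, 85.3, 84.8 and 84.3 in P19, and 244, 243 and 223 in R1. P19 NTES7 lay between P19 and R1, with no overlap, which is also the order of the fibroblast sums. Lef1 was 2.79 times lower in P19 than in R1 (log2 difference -1.48 ± 0.12 SE, limma adjusted p = 3.26e-07). P19 NTES7 differed from P19 by 0.82 and from R1 by -0.66 on the log2 scale (adjusted p = 0.000216 and 0.000781 in limma), under the limit on fold in both.

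Tcf7l2 and Tcf7l1 had their highest means in P19. Tcf7l2 averaged 41.6 ± 7.18 in P19 NTES7, 58.3 ± 6.68 in P19 and 29.8 ± 1.03 in R1, and its log2 difference in P19 against R1 was 0.96 ± 0.13 SE (limma adjusted p = 4.58e-05), just under the limit on fold. Tcf7l1, the repressor named above, gave 206, 142 and 142 in P19 NTES7, 212, 255 and 242 in P19, and 177, 175 and 159 in R1. The P19 arrays were above all others, but the log2 differences of -0.55 in P19 NTES7 against P19 and 0.47 in P19 against R1 did not pass (adjusted p = 0.0131 and 0.0193 in limma).

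Sp5, a transcription factor gene known as a direct target of beta-catenin in mouse ES cells, was dim in all 3 lines. Its intensity was 12.9, 11.2 and 11.1 in P19 NTES7, 7.4, 6.1 and 7.1 in P19, and 12.8, 12.6 and 10.5 in R1. The P19 arrays lay below all others, and P19 NTES7 and R1 overlapped. The log2 difference was 0.77 in P19 NTES7 against P19 and -0.80 in P19 against R1 (limma adjusted p = 0.000368 and 0.000113), under the limit on fold. The antagonist gene Nkd1, also a known target, differed by 0.47 in P19 NTES7 against R1 (adjusted p = 0.00176 in limma). Nkd2 had no adjusted p under 0.01.

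Of the known target genes Axin2, Lef1, Sp5 and Nkd1, the first 3 had their lowest means in P19. Nkd1 did not, with means of 16.1 in P19 NTES7, 13.7 in P19 and 11.6 in R1, dim throughout. The 250 bases before the start sites of Axin2, Lef1 and Sp5 are shown. The sequences come from RefSeq (mouse build GRCm38.p6) and are read on the strand of the gene, which is the plus strand for all 3. Capitals mark matches on either strand to the TCF/LEF words CTTTGAT or CTTTGAA or CTTTGTT or CTTTGTA. The windows are chr11:108920099-108920348 for Axin2, chr3:131110047-131110296 for Lef1 and chr2:70474673-70474922 for Sp5.
Axin2: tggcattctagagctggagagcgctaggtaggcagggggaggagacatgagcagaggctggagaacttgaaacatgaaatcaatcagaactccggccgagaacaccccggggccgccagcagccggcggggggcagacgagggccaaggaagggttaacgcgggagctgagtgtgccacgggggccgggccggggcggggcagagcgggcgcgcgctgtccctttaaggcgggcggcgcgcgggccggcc
Lef1: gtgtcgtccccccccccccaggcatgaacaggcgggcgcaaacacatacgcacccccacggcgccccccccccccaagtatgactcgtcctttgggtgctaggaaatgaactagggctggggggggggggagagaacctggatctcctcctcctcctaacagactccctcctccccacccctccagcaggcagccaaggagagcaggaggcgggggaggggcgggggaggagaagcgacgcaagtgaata
Sp5: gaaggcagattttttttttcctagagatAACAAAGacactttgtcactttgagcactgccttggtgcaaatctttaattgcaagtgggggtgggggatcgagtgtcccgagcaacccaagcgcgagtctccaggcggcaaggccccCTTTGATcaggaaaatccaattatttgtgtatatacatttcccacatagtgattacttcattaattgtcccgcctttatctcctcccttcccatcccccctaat
The Sp5 window holds CTTTGAT on the strand of the gene, starting at base 147 of the window, and CTTTGTT on the opposite strand, starting at base 29. These letters are not in the Axin2 and Lef1 windows, nor in that of Nkd1, which is not shown. Bases outside the windows were not searched, so matches there are not known. A window was found for 38 of the 58 genes, and 4 of these (Sp5, Dkk1, Fzd7 and Wnt11) had a match, or 10.5%, against 4026 of 27025 genes in the table (14.9%). A match is a run of letters and was not tested as a binding site.

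Genes that respond to the pathway were described from a list of 22 known targets, of which 21 were measured, and T was not analysed here. In P19 NTES7 against P19, 5 were called higher and none lower, in P19 NTES7 against R1 3 were higher and 3 lower, and in P19 against R1 none were higher and 7 lower. These were 23.8%, 28.6% and 33.3% of the list, against 2.91%, 4.52% and 7.40% of all probe sets. The median log2 differences were 0.20, -0.06 and -0.38. The list was chosen with earlier results of these data known, so these shares are descriptive only. Calls in P19 NTES7 against P19 and in P19 against R1 ran the way of the fibroblast markers, where 12 of 19 markers were called higher in P19 NTES7 against P19 and 15 lower in P19 against R1. Eomes, a T-box gene of early mesoderm and endoderm, averaged 146 ± 12.4 in P19 NTES7, 27.2 ± 6.16 in P19 and 79.2 ± 8.38 in R1. Its level was 5.44 times that of P19 in P19 NTES7, and in P19 it was 2.96 times lower than in R1 (limma adjusted p = 1.44e-07 and 2.73e-06).

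Not all targets were called in the same comparisons as Axin2. Jun, an AP-1 subunit gene that many other stimuli also induce, averaged 345 ± 53.0 in P19 NTES7, 69.4 ± 19.1 in P19 and 105 ± 37.7 in R1. It was higher in P19 NTES7 than in both P19 (log2 difference 2.34 ± 0.22 SE) and R1 (1.77 ± 0.22 SE). Its means had the order of those of Axin2, but Jun was not called in P19 against R1. Fgf4, a growth factor gene of pluripotent cells, averaged 24.6 ± 2.22 in P19 NTES7, 38.1 ± 10.3 in P19 and 141 ± 6.59 in R1, and was lower than in R1 by 5.74 times in P19 NTES7 and by 3.80 times in P19 (adjusted p = 1.33e-07 and 9.46e-07 in limma). Gbx2, a homeobox gene, averaged 14.9 ± 1.16 in P19 NTES7, 15.2 ± 1.29 in P19 and 63.8 ± 9.94 in R1. It was dim in P19 NTES7 and in P19, and its log2 difference from R1 was -2.09 and -2.06 in these lines.

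The other called targets, named after their values were seen, also differed in which comparisons called them. Mixl1, Cd44 and Fgf8 were higher in P19 NTES7 than in P19, by log2 differences of 1.30, 1.67 and 1.69, and Mixl1 and Cd44 were dim in P19. Cd44 codes for a surface receptor that fibroblasts also express, and its direction was that of the fibroblast markers. Fgf8 and Ascl2 were higher in P19 NTES7 than in R1 (1.35 and 1.25), and the cyclin gene Ccnd1 was lower (-1.81). In P19 against R1, Mixl1, Cd44, Myc and Ccnd1 were lower, by log2 differences of -1.97, -1.59, -1.44 and -1.40.

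**Figure D4:**
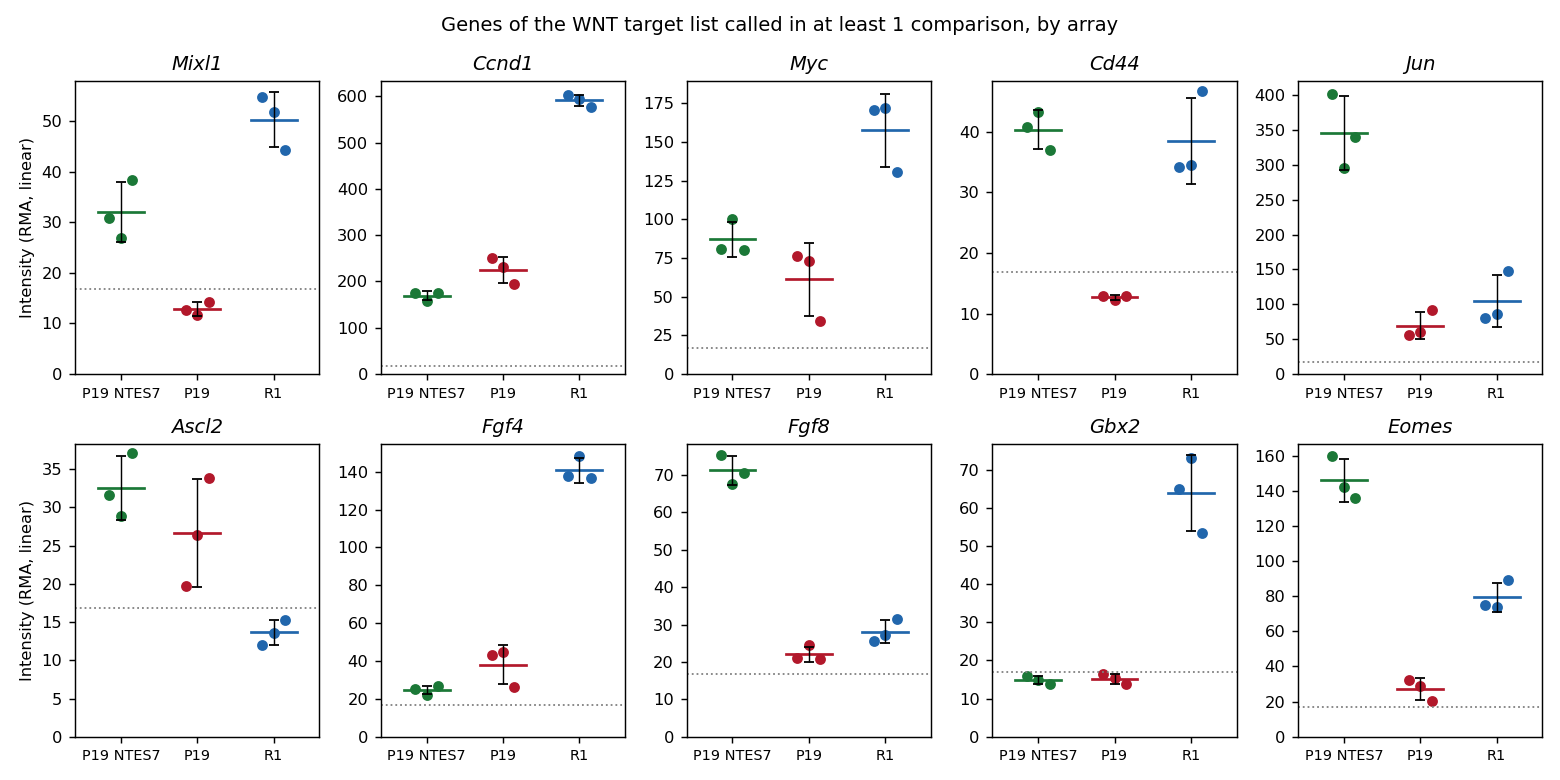
Each panel shows the intensity on the linear RMA scale of 1 of the 10 target genes called in at least 1 comparison, with arrays as points, means as lines and SDs over 3 arrays as bars. By their means, Eomes, Cd44, Mixl1, Fgf8 and Jun are lowest in P19, while Ccnd1, Fgf4 and Gbx2 are far higher in R1 than in the other lines.

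Around the receptors, 25 genes of WNT secretion and the cell surface were measured. P19 NTES7 against P19 gave no call, P19 NTES7 against R1 gave 1 higher and 1 lower, and P19 against R1 gave 1 higher and 2 lower. The shares called were 0%, 8% and 12% of the list, against 2.91%, 4.52% and 7.40% of all probe sets, and the median log2 differences were 0.05, 0.21 and -0.007. Gpc3, a heparan sulphate proteoglycan gene, averaged 792 ± 21.4 in P19 NTES7, 772 ± 70.0 in P19 and 186 ± 7.36 in R1. It was 4.25 times higher in P19 NTES7 than in R1 and 4.13 times higher in P19 than in R1 (limma adjusted p = 3.71e-09 and 2.49e-09). Notum, whose product removes the lipid from WNT ligands, averaged 14.5 ± 1.90 in P19 NTES7, 13.3 ± 0.93 in P19 and 54.5 ± 6.0 in R1. Its log2 difference from R1 was -1.91 in P19 NTES7 and -2.03 in P19, and it was dim in both. Ror1, a receptor for WNT5A, was 3.25 times lower in P19 than in R1 (adjusted p = 3.61e-07 in limma) and averaged 20.3 ± 3.77 in P19 NTES7, 11.0 ± 1.02 in P19 and 35.6 ± 3.64 in R1.

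Of 32 genes that act in the cytoplasm and nucleus, none was called between P19 NTES7 and P19. This compares with 2.91% of all probe sets and 5.21% of those above the median brightness of the array. The limit on p was passed by 7 of the 32 genes (21.9%), all lower in P19 NTES7. Of all probe sets 11.3% passed it, 1358 higher and 1901 lower. The corepressor gene Tle4 averaged 96.5 ± 11.4 in P19 NTES7, 134 ± 6.16 in P19 and 356 ± 30.9 in R1 and was lower than in R1 by 3.70 times in P19 NTES7 and 2.66 times in P19 (limma adjusted p = 3.49e-08 and 2.96e-07). Ctbp2, another corepressor gene, was lower than in R1 in the same 2 lines, with log2 differences of -1.47 and -1.34. Bcl9, which links beta-catenin to its coactivators, was 2.88 times higher in P19 than in R1 (adjusted p = 3.78e-08 in limma). These were all the calls of the list, 2 in P19 NTES7 against R1 (6.25%) and 3 in P19 against R1 (9.38%). Of all probe sets 4.52% and 7.40% were called, and of those above the median brightness 7.96% and 12.8%. Both shares of the list lay between these backgrounds. Only 2 of the 32 genes, Pygo1 and Tle2, were dim, in each line. The median log2 difference of the 32 genes was -0.13 in P19 NTES7 against P19, 0.13 in P19 NTES7 against R1 and 0.22 in P19 against R1.

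Planar polarity genes, many of which act in the branch without beta-catenin, gave 1 lower call of 17 in P19 NTES7 against P19. They gave 3 higher calls in P19 NTES7 against R1, and 3 higher and 1 lower in P19 against R1. The shares called were 5.88%, 17.6% and 23.5%, against 2.91%, 4.52% and 7.40% of all probe sets. Most of the 17 genes were not dim, and of probe sets above the median brightness 5.21%, 7.96% and 12.8% were called. Prickle2 averaged 31.4 ± 4.20 in P19 NTES7, 45.7 ± 3.13 in P19 and 12.6 ± 2.6 in R1, where it was dim. Its log2 difference from R1 was 1.32 in P19 NTES7 and 1.87 in P19 (limma adjusted p = 1.41e-05 and 2.64e-07). Prickle1 was higher in P19 NTES7 than in R1 by 1.39, on the log2 scale, and Celsr3 was lower in P19 NTES7 than in P19 (log2 difference -1.33). Vangl1, a membrane protein gene of the same system, was lower in P19 than in R1 (-1.16). The remaining calls, named after their values were seen, were Dact1, higher in P19 NTES7 than in R1 (1.05), and Celsr2 and Intu, higher in P19 than in R1 (1.06 and 1.04). The median log2 difference of the 17 genes was -0.33 in P19 NTES7 against P19, 0.30 in P19 NTES7 against R1 and 0.48 in P19 against R1.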

How the data were processed

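Total RNA of 3 lines was hybridised to Affymetrix Mouse Gene 1.0 ST arrays, 3 per line. Intensities were taken as the authors deposited them. They were produced by Robust Multichip Average, according to the methods, and its version was not given in the sources used here. The values are on the linear scale, and the scaling to a set median that the methods describe was not found in them. The number of arrays limits the precision.

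Log2 intensities of 28853 probe sets on 9 arrays entered 1 limma fit (limma 3.58.1 in R 4.3.3) that had a mean per line and no covariate. P-values of each comparison were Benjamini-Hochberg adjusted across all its probe sets. A call needed an adjusted p under 0.01 and a fold over 2. The methods used the same numbers on the p of a variance test over the 3 lines, with no adjustment stated. The fit was tested on simulated data. Array annotation gave 1 symbol for 21789 probe sets, several for 1621 and none for 5443. A gene was read from its brightest probe set. Members, lists and motifs were chosen with earlier results of these data known. All called members and up to 4 called genes of each other list were named by rule. Members that passed only the limit on p, and further targets, were added after their values were seen. RefSeq promoter windows were cut to the 250 bases before the start site listed first. Other normalizations, offsets, filters, tests and left-out arrays were tried. Raw images were not used here.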

Additional observations from a re-analysis of the deposited data

How the results depend on the processing

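Calls of single genes were recomputed under 20 alternatives. Of 218 pairs of a gene result and an alternative, 200 kept their call, 18 lost it and 0 reversed. Several alternatives could not change a log2 difference, so these counts overstate how far the calls were tried. Among these were other variance estimates and tests, the replicate block and leaving out arrays of the third line. Averaging probe sets was another, since each called gene had 1 probe set. The calls of Axin2, Sfrp1 and Sfrp2 between P19 NTES7 and P19, and of Lef1 between P19 and R1, held in each alternative run. With 16 added to each intensity before log2, which shrinks log2 differences by construction and those of low values most, the number of calls was 3 in P19 NTES7 against P19, 0 in P19 NTES7 against R1 and 1 in P19 against R1, out of 412, 709 and 1088 probe sets called. The lost calls were Wnt3 (0.52) and Fzd3 (-0.77) in P19 NTES7 against P19, Sfrp4 (-0.58) in P19 NTES7 against R1, and Axin2 (-0.83), Fzd3 (0.85), Sfrp2 (0.86) and Wnt5a (-0.80) in P19 against R1. Without the limit on fold, the counts were 13, 15 and 18 (22.4%, 25.9% and 31.0% of the 58 genes), against 11.3%, 17.1% and 23.0% of all probe sets. Under the variance test over the 3 lines that the methods name, unadjusted or adjusted, Sfrp4 was not called, which left 0 calls in P19 NTES7 against R1, and the other comparisons had 5 each. Leaving out 1 array at a time gave 4 to 6 calls in P19 NTES7 against P19, 0 to 1 in P19 NTES7 against R1, with 0 only without R1 array 3, and 4 to 6 in P19 against R1. Calls gained were Fzd10 in P19 NTES7 against P19 (without P19 NTES7 array 2 or P19 array 2) and, in P19 against R1, Wnt8a (without P19 array 1 or R1 array 1), Tcf7l2 (without P19 array 3) and Frzb (without R1 array 3). Quantile normalization lost Fzd3 between P19 NTES7 and P19 (-0.97) and Sfrp2 between P19 and R1 (0.99), and gained Fzd10 between P19 NTES7 and P19. A covariate for the lower quartile of each array, added after seeing the data, lost the same calls (-0.94 and 0.77), and gained Sfrp4 and Wnt8a between P19 and R1, with 4, 1 and 6 calls in all. Leaving out dim probe sets removed 31 members, Wnt3 and Wnt5a among them. Replicate numbers did not pair the arrays: the 9 same-numbered pairs correlated between -0.22 and 0.04, and with a replicate block the counts were 5, 1 and 5. With 3 arrays per line and 27 of 58 members dim in all lines, small differences of dim genes may not be detectable here.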
